A study of Homo sapiens with 34 samples.

Results

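Androgen-dependent (AD) LNCaP cells, a human prostate cancer line, were given an siRNA to EZH2 (siEZH2) or a mock siRNA (labelled NC), and their RNA was sequenced. These are 4 of the 34 samples of the series, 2 libraries in each group, and they were chosen by their titles. Both groups were transfected with Lipofectamine and collected after 24 hours, so transfection is common to them. RNA-seq of untreated AD cells, and of untreated, mock and siEZH2 cells of the androgen-independent (AI) form kept in charcoal-stripped serum, completed 12 RNA-seq libraries. The transfection protocol names LNCaP/abl, an androgen-independent derivative, and not the AD form, and the titles were followed. The labels do not say whether the 2 libraries of a group came from separate cultures, so each p-value reflects a spread between libraries that may be technical.

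EZH2 is the catalytic subunit of Polycomb repressive complex 2 (PRC2), which places the repressive mark H3K27me3 on histone H3. SUZ12 and EED are needed for its activity, and accessory subunits such as JARID2 and the Polycomb-like proteins guide it to chromatin. EZH2 is often abundant in advanced prostate cancer, where it is known as a silencer of genes.

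EZH2 mRNA was nearly the same in siEZH2 and mock AD cells. EZH2 (ENSG00000106462.10, minus strand of chr7:148807383-148884291, GRCh38.p14) had 11.52 and 10.73 RPKM (reads scaled to gene length and to library size) in the siEZH2 libraries, against 10.95 and 12.48 RPKM in the mock libraries. The groups overlapped, with the siEZH2 replicate 1 value between the mock values. Means were 11.1 ± 0.559 RPKM in siEZH2 and 11.7 ± 1.08 RPKM in mock cells (SD, n = 2 each). The siEZH2 level was estimated at 95.3% of mock, with a 95% interval of 71.7% to 127% on the scale of RPKM + 0.5 (log2 difference -0.07, interval -0.48 to 0.34; limma adjusted p = 0.999). The exact two-sided permutation test of the 4 values gave p = 0.667, where 0.333 is the smallest that 2 against 2 libraries allow. Without mock replicate 2, the higher of the mock values, the estimate turned to 0.02. A lower EZH2 mRNA level at the time of collection was therefore not detected, and the interval ends at 71.7% of mock. EZH2 protein was not measured in the files used here.

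The AI cells gave other EZH2 values. EZH2 had 3.6 and 4.33 RPKM in siEZH2 AI cells, against 7.07 and 5.44 RPKM in mock AI cells, without overlap (log2 difference -0.59, limma adjusted p = 0.119). The effect in AD minus the effect in AI was 0.52 on the log2 scale, and the test of that difference gave an adjusted p of 0.748 (limma). Untreated AD cells had 5.21 and 6.94 RPKM, below all 4 transfected AD libraries. Of all genes tested, 57.4% had both siEZH2 values, and 58.3% both mock values, above both untreated AD values. Genes were tested if they reached a set level in the transfected AD libraries, which favours such genes. Untreated AI cells went the other way for EZH2, with 10.11 and 12.62 RPKM, above all 4 transfected AI libraries.

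The other PRC2 genes also lay close to their mock levels. Of 15 listed genes 14 were tested, none passed the test in either direction, and their median log2 difference was -0.09, beside -0.02 over all genes tested. Of the 14, 12 had a negative difference, and the median was 0.0009 without mock replicate 2. Both siEZH2 values lay below both mock values for 4 and above both for 1, or 28.6% and 7.14%, against 24% and 19.5% of all genes. SUZ12, a core subunit, had 4.71 and 4.83 RPKM in siEZH2 cells, against 6.35 and 5.23 RPKM in mock cells (log2 difference -0.25, interval -0.64 to 0.14). RBBP7, a histone-binding subunit, had 142.87 and 144.48 RPKM in siEZH2 cells, against 158.34 and 152.63 RPKM in mock cells. For both genes the siEZH2 values lay below both mock values, by less than the interval of the difference. EED, the subunit that binds H3K27me3, had 11.52 and 10.43 RPKM in siEZH2 cells and 10.53 and 11.86 RPKM in mock cells, which overlap. EPOP, an accessory subunit, was the 1 gene of the list with both siEZH2 values on the higher side, at 14.24 and 15.81 RPKM in siEZH2 cells against 13.88 and 12.47 RPKM in mock cells. Of the 22 PRC1 genes tested, whose products act on H2A and bind H3K27me3, none passed the test, and the median was -0.02 (0.012 after trimmed-mean scaling).

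**Figure D1:**
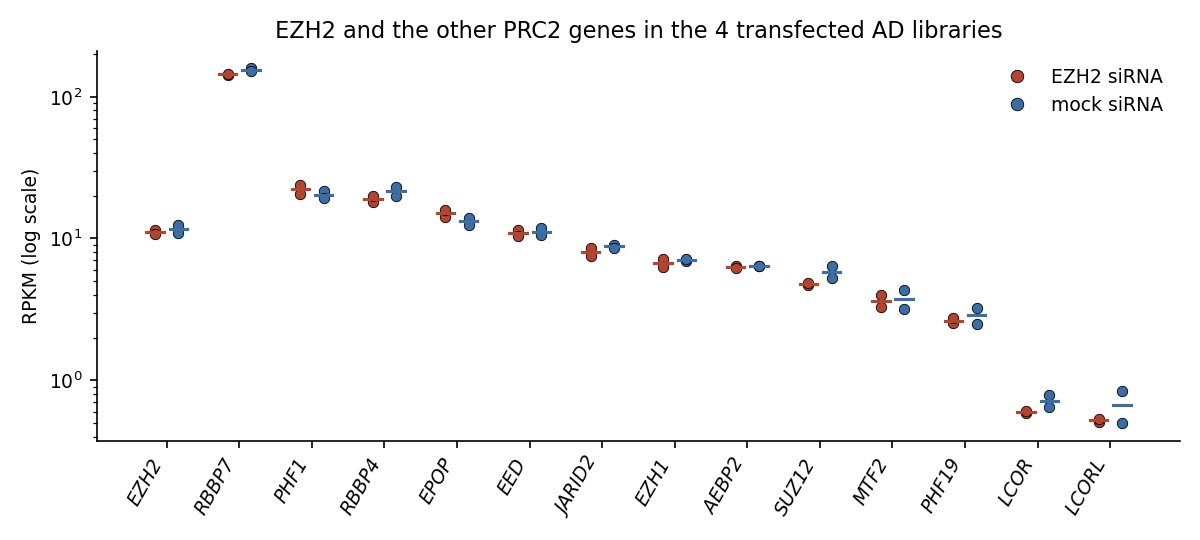
RPKM on a log axis of EZH2 and the other 13 PRC2 genes tested, with a point per library, siEZH2 in red left of mock in blue, and a bar at each group mean. EZH2 lies between 10.73 and 12.48 RPKM in all 4 libraries.

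Of 13018 genes tested, those with 0.5 RPKM or more in at least 2 of the 4 libraries, 2 rose and 0 fell in siEZH2 cells at an adjusted p under 0.05 (limma, 12 libraries in the fit; 0.0154% of genes tested). At an unadjusted p under 0.05 there were 511 genes (3.93%), 1380 (10.6%) when the spread was taken from the 8 transfected libraries alone and 1443 (11.1%) when it was taken from the 4 libraries. Both genes that rose were close to the detection limit. MT-TP, the mitochondrial proline tRNA, had 1.55 and 2.46 RPKM in siEZH2 cells and was listed at 0 in both mock libraries (adjusted p = 0.032). These values stand for 1 and 2 reads in siEZH2 cells, against 0 and 0 reads in mock cells, so no fold is given. ROPN1L-AS1, an antisense RNA gene at chr5:10440735-10441851, had 1.11 and 1.77 RPKM in siEZH2 cells and was listed at 0 in mock cells (adjusted p = 0.025). Without a stated use of strand its reads cannot be told from those of the gene opposite. Both genes passed the filter on low values through the siEZH2 libraries alone, so they had to be higher there to be tested. In all, 84 genes passed through the siEZH2 libraries alone and 113 through the mock libraries alone. With no filter 21 genes rose and 17 fell. Neither gene was called when a mock library was left out (limma adjusted p 0.17 to 0.375), and without either siEZH2 library neither passed the filter. Neither was called after quantile or trimmed-mean scaling, nor in the fits of 8 or 4 libraries.

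The size of the differences was small at all but low levels. The absolute log2 difference had a median of 0.129 and a 99th percentile of 0.914. It exceeded 1 for 96 genes, but for 3 of the 7065 genes that averaged 5 RPKM or more. Of 3269 genes that averaged 20 RPKM or more, 3 exceeded 0.5, and all 3 were lower in siEZH2 cells without passing the test. MT-TL1, a mitochondrial leucine tRNA, had 16.85 and 18.99 RPKM in siEZH2 cells against 33.43 and 28.86 RPKM in mock cells. MT-ND6, a complex I subunit, had 259.98 and 219.58 RPKM in siEZH2 cells against 383.62 and 321.1 RPKM in mock cells. POLR3GL, a subunit of RNA polymerase III, had 29.92 and 34.09 RPKM in siEZH2 cells against 54.52 and 39.02 RPKM in mock cells. In each case both siEZH2 values were below both mock values. The 95% interval lay within 1 log2 unit on both sides for 90.1% of genes and within 0.5 for 37.7%. These widths do not say which changes would pass the test, since most of the 96 genes above 1 did not pass it. Changes of these sizes could have gone undetected, as well as smaller ones.

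**Figure D2:**
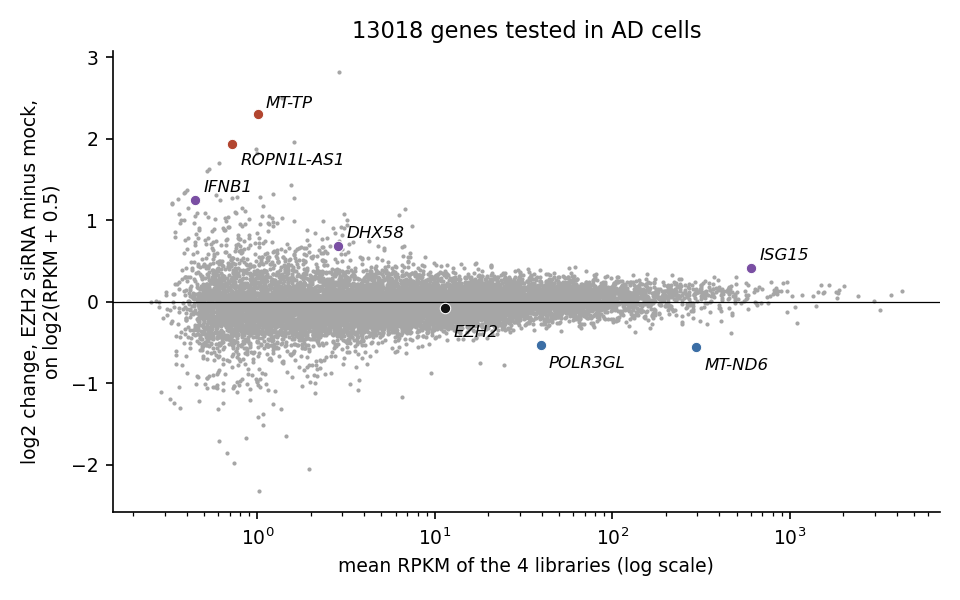
Each point is 1 of 13018 genes, with its mean RPKM over the 4 libraries on a log axis and its log2 difference, siEZH2 minus mock, on the log2(RPKM + 0.5) scale. The spread narrows with the level, EZH2 lies near 0, and the 2 genes that rose, MT-TP and ROPN1L-AS1, have low levels.

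The 4 libraries differed little in depth, from 9.49 to 12 M reads (M, mega), as recovered from the steps between the RPKM values of mitochondrial tRNAs. Among 1471 genes at 50 RPKM or more, the SD of the log2 difference between the 2 siEZH2 libraries was 0.077, against 0.152 between the 2 mock libraries. Pairs of a siEZH2 and a mock library gave 0.147 to 0.16, the same range as the mock pair. The mitochondrially encoded share of the summed RPKM was 2.12% and 2.1% in siEZH2 cells and 2.37% and 2.45% in mock cells, against 18.4% and 32.6% in untreated AD cells. Luminal prostate genes were expressed in all 4 libraries: KLK3, which encodes prostate-specific antigen, had 1837.35 and 1906.83 RPKM in siEZH2 cells and 1912.37 and 1726.46 RPKM in mock cells. Of 12 blood, endothelial and stromal markers 1 passed the filter on low values, the contractile actin ACTA2, at 0.41 and 0.47 RPKM in siEZH2 cells and 0.7 and 0.83 RPKM in mock cells. Of the 20 genes that best separated untreated AI from untreated AD cells, 16 lay on the AD side in each of the 4 libraries. MAGEA1, CBLN2 and PLA2G2A, which were higher in untreated AI than in untreated AD cells, and OR51E1, which was lower, did not.

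The genes of smallest unadjusted p at a mean of 1 RPKM or more included a pair from interferon signalling on the higher side. IFNL1, a type III interferon, had 5.04 and 3.81 RPKM in siEZH2 cells, against 1.83 and 2.04 RPKM in mock cells (log2 difference 1.01, limma adjusted p = 0.214). DHX58, which encodes the RNA sensor LGP2, had 3.7 and 3.52 RPKM in siEZH2 cells, against 2 and 2.13 RPKM in mock cells (log2 difference 0.68, adjusted p = 0.722). The groups did not overlap for either gene, and neither passed the test. MIR621, a microRNA gene, had the largest log2 difference of all genes tested, 2.82, from 5.49 and 5.24 RPKM in siEZH2 cells against 0 and 0.87 RPKM in mock cells (adjusted p = 0.214). MicroRNA genes are short, so these values may stand for few reads, which were not worked out for this gene. The others with both siEZH2 values above both mock values were RTCA-AS1, SCGB1B2P, ZFP28-DT, HLA-U, SNCG and CRIPT, with log2 differences of 0.61 to 1.96. RTCA-AS1 may share reads with the gene opposite, and HLA-U, a pseudogene, with other HLA genes.

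On the lower side stood TBC1D23, an adaptor of endosome-to-Golgi transport, with 2.26 and 2.76 RPKM in siEZH2 cells against 4.22 and 5.22 RPKM in mock cells. TAFAZZIN, the cardiolipin-remodelling enzyme of mitochondria, had 2.89 and 2.95 RPKM in siEZH2 cells against 5.74 and 4.93 RPKM in mock cells. Both had an adjusted p of 0.722 (limma), with log2 differences of -0.79 and -0.77. The other 8 genes named by this rule were CCDC138, STIM2-AS1, CCDC25, MT-TI, C1orf52, the cofilin phosphatase gene SSH1, GABPB2 and the peroxisomal fatty acid oxidation gene EHHADH. Their log2 differences ran from -2.04 to -0.43, and none passed the test. MT-TI again stands for single reads, 0 and 1 in siEZH2 cells against 2 and 3 in mock cells. STIM2-AS1 may share reads with the gene opposite.

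Genes that carried H3K27me3 in AD cells did not stand apart from the rest. These peaks, and the EZH2 ChIP and RIP data below, come from AD libraries whose titles name no siRNA. The mark and the binding of EZH2 were thus not measured in siEZH2 or mock cells. A deposited H3K27me3 peak lay within 1000 bases of the annotated start in both AD lists for 816 genes, of which 82 were expressed enough to be tested. None of the 82 was called, and their median log2 difference was -0.01, against -0.03 for the other 9665 genes with a known start. The siEZH2 values lay above both mock values for 14 and below both for 15, or 17.1% and 18.3%, against 19.5% and 24% of all genes tested. Among those averaging 1 RPKM or more, RND3, a small GTPase, had the smallest p on the higher side, with 2.5 and 1.99 RPKM in siEZH2 cells against 0.76 and 2.12 RPKM in mock cells, which overlap. TGFB1, a cytokine, had 3.39 and 2.6 RPKM in siEZH2 cells and 1.7 and 2.77 RPKM in mock cells, which overlap too. ZKSCAN4 had 2.79 and 2.93 RPKM in siEZH2 cells and 3.52 and 3.75 RPKM in mock cells, where both siEZH2 values are lower. The median level of the 82 genes was 1.09 RPKM, against 7.32 RPKM for the others, so their differences rest on fewer reads.

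An EZH2 ChIP peak lay at the promoter of 94 genes in both AD lists, of which 29 were tested. None was called, and the median was 0.06, against -0.03 for the other genes, with 10 of the 29 above both mock values and 5 below, or 34.5% and 17.2%, against 19.5% and 24% of all genes tested. SEMA3B-AS1, an antisense RNA gene, had the smallest p of the 29, at 2.49 and 5.45 RPKM in siEZH2 cells against 10.2 and 7.88 RPKM in mock cells (log2 difference -1.17, limma adjusted p = 0.999). It may share reads with the gene opposite, as the use of strand is not stated. ITPKA, an inositol trisphosphate kinase, had 9.99 and 7.4 RPKM in siEZH2 cells against 5.33 and 6.07 RPKM in mock cells. Both genes had groups that did not overlap, in opposite directions. Of the 29 genes, 15 fell in the shortest of the 4 span classes described further on.

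Genes whose RNA was enriched in EZH2 RIP, an immunoprecipitation of RNA with an EZH2 antibody, had a lower median than other genes, and most were long. The log2 excess over each IgG library was 2 or more in both AD EZH2 libraries for 106 genes, and 73 were tested. None was called, none had an unadjusted p under 0.05 (limma, 12 libraries), and the median was -0.13, against -0.02 for 12682 other genes in the RIP table. The siEZH2 values were below both mock values for 24 genes (32.9%) and above both for 5 (6.85%), against 24.3% and 19.6% of the other genes. PTPRM, a receptor tyrosine phosphatase, had 5.79 and 6.18 RPKM in siEZH2 cells against 7.99 and 7.87 RPKM in mock cells. MDN1, a ribosome assembly ATPase, had 1.15 and 1.08 RPKM in siEZH2 cells against 1.63 and 1.49 RPKM in mock cells. Both genes are lower without overlap. COL6A1, a collagen, had 58.38 and 59.07 RPKM in siEZH2 cells and 55.89 and 54.35 RPKM in mock cells. The median RefSeq span of the 65 with a span was 135757 bases, and 50 of them were in the longest span class. In that class as a whole 39.9% of genes lay below both mock values and 8.27% above, with a median of -0.11. The RIP genes were near these shares, and the part of span was not tested.

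Across all genes, the difference between siEZH2 and mock AD cells went with gene span, the distance from first to last base of a gene in RefSeq. A span was found for 12093 genes (92.9%), which were put in 4 classes of equal size. In the shortest class, up to 10738 bases, the median log2 difference was 0.06, and 31.3% of genes lay above both mock values against 12.5% below. In the longest class, from 67009 bases, the median was -0.11, with 8.27% above and 39.9% below. The classes between had medians of 0.01 and -0.05, so the order followed the span. The AI cells, with no library in common, had medians of 0.07, 0, -0.11 and -0.17 from the shortest to the longest class. These are descriptions across genes, which are not replicates.

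**Figure D3:**
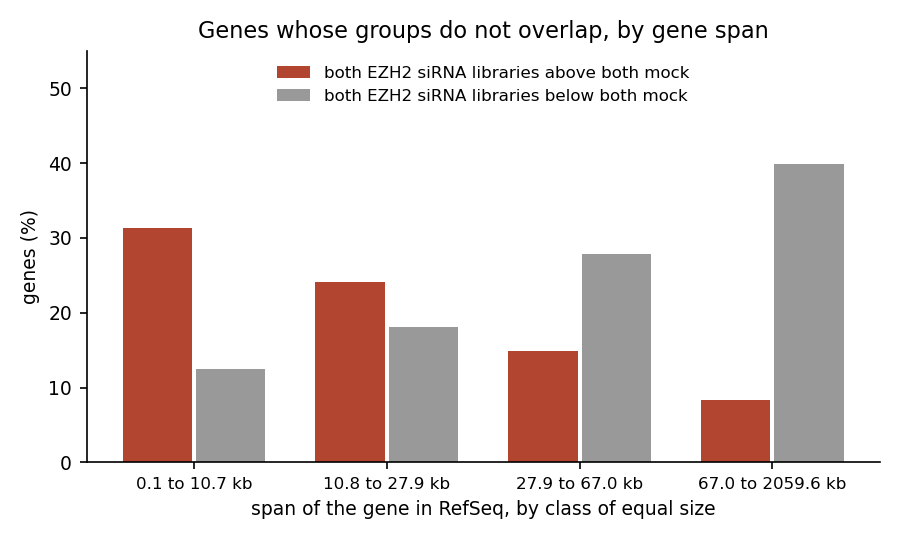
Share of genes with both siEZH2 values above both mock values (red) and below both (grey), by class of gene span from the shortest to the longest. The red bars go down from 31.3% to 8.27% and the grey bars up from 12.5% to 39.9%.

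Interferon response genes were the list with the highest median. These genes are induced when interferons bind their receptors, and double-stranded RNA, including some siRNA, can start that response through sensors such as RIG-I, MDA5 and LGP2. Of 29 listed genes 19 were tested. None passed the test, but 17 had a positive log2 difference, with a median of 0.17 (0.18 after quantile and 0.21 after trimmed-mean scaling). The siEZH2 values lay above both mock values for 12 of the 19 and below both for 0, against 19.5% and 24% of all genes. Their summed level was 1135 and 1126 RPKM in siEZH2 cells, against 882 and 892 RPKM in mock cells. Of the 19 genes, 8 were in the shortest span class and 1 in the longest, and the part of gene span in this difference was not tested.

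Among the effectors, ISG15, a ubiquitin-like protein gene at chr1:1013497-1014540, had 691.27 and 690.97 RPKM in siEZH2 cells, against 509.55 and 529.71 RPKM in mock cells. The log2 difference was 0.41 with an adjusted p of 0.999 in the fit of 12 libraries (limma). Its unadjusted p was 0.331 there and 0.000429 in the fit of the 8 transfected libraries, where the adjusted p was 0.268. ISG15 had 31.76 and 13.64 RPKM in untreated AD cells. IFI6, a mitochondrial and endoplasmic reticulum protein gene, had 181.66 and 167.46 RPKM in siEZH2 cells against 139.12 and 134.93 RPKM in mock cells. OASL, an oligoadenylate synthetase-like gene, had 80.1 and 80.19 RPKM in siEZH2 cells against 64.51 and 58.29 RPKM in mock cells. All 3 genes had groups that did not overlap, with log2 differences of 0.35 to 0.41. MX1, a dynamin-like GTPase gene, had 2.71 and 2.36 RPKM in siEZH2 cells against 1.73 and 1.92 RPKM in mock cells, again without overlap.

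Among ligands, IFNB1, the type I interferon beta, had 0.98 and 0.68 RPKM in siEZH2 cells against 0.12 and 0 RPKM in mock cells. It passed the filter on low values through the siEZH2 libraries alone, so its direction was fixed by being tested, and it is 1 of the 12 genes above both mock values; the other 18 genes tested gave 11. With the RefSeq length of 839 bases these values come to about 8 and 7 reads in siEZH2 cells, against 1 and 0 reads in mock cells. Among sensors and transcription factors the differences were unequal. DHX58 is given above, RIGI had 6.8 and 7.24 RPKM in siEZH2 cells against 6.14 and 6.69 RPKM in mock cells, and IFIH1, which encodes MDA5, had 3.8 and 3.92 RPKM in siEZH2 cells against 3.94 and 3.75 RPKM in mock cells. IRF1 had 14.55 and 15.05 RPKM in siEZH2 cells and 15.54 and 14.86 RPKM in mock cells. The groups of IFIH1 and IRF1 overlapped.

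Promoters of this list were searched for a sequence tied to the interferon response. The list was chosen for that response, so a high share of matches may come from the choice and says nothing of siEZH2. The core of the interferon-stimulated response element was searched as GAAANNGAAA on both strands of the 300 bases from 250 before to 50 after the RefSeq start (GRCh38.p14). It was found in 9 of the 14 tested list genes with a promoter sequence (64.3%), against 2.51% of 9734 promoters of tested genes and 3.65% of all 27305. IRF1, RIGI and IFNB1 were among those without a match, and IFIH1, whose groups overlapped, had 3. The promoters of the 3 effectors described above with a sequence are shown 5′ to 3′ on the gene's strand, with matches in capitals. In ISG15 2 matches overlap, and in MX1 the match lies after the start. A match describes these letters and is not a shown binding site.
ISG15, chr1:1013247-1013546, plus strand: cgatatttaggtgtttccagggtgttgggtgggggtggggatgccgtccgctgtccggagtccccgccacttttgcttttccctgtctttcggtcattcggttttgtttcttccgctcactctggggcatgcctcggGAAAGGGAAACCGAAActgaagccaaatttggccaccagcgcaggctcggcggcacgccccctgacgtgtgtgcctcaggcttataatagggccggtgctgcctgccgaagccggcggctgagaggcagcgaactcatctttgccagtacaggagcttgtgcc
IFI6, chr1:27672143-27672442, minus strand: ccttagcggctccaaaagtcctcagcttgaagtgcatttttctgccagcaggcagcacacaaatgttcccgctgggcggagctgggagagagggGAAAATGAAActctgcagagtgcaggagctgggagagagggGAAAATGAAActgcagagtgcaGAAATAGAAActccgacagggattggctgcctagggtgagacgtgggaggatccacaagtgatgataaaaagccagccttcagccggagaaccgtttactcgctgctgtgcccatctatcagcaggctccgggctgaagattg
MX1, chr21:41420308-41420607, plus strand: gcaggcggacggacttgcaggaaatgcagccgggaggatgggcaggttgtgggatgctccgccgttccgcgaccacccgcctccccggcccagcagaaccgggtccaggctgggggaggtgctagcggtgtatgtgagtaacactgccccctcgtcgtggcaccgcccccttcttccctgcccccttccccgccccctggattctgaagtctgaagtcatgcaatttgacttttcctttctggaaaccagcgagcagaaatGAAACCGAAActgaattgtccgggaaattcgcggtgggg

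Both transfected groups had far higher interferon gene levels than untreated AD cells. Both siEZH2 values exceeded both untreated values for 19 of 19 genes, and both mock values did so for 18 of 19, against 57.4% and 58.3% of all genes tested. The filter on low values used the transfected AD libraries alone, so a gene at 0 in untreated cells could be tested. A gene low only after transfection could not, which favours higher shares in the list and over all genes. The summed level of the list in untreated AD cells was 89.7 and 68.3 RPKM, against 882 to 1135 RPKM in the 4 transfected libraries. OASL, at 58.29 to 80.19 RPKM after transfection, was listed at 0 and 0.02 RPKM in untreated cells. Transfection and whatever else differed between these sets of libraries, such as the mitochondrial share given above, cannot be told apart. In AI cells the median log2 difference of the list between siEZH2 and mock was 0, with 9 of 19 positive. For DHX58 the difference of the effects, AD minus AI, was 0.81 (limma adjusted p = 0.486).

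**Figure D4:**
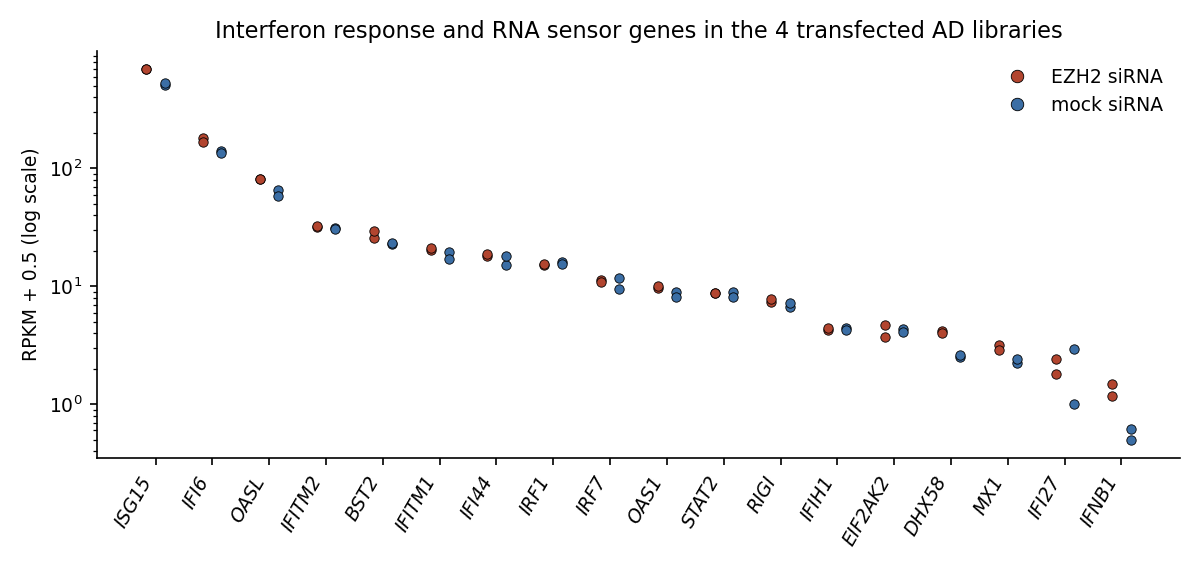
RPKM + 0.5 on a log axis of 18 of the 19 interferon response and RNA sensor genes tested, with a point per library, siEZH2 in red left of mock in blue, ordered by mean level. For 12 genes, ISG15, IFI6 and OASL among them, both red points lie above both blue points.

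Cytosolic ribosomal protein genes were also slightly higher. Of 35 tested, none passed the test, 33 had a positive log2 difference and 22 had both siEZH2 values above both mock values, with 0 below both, against 19.5% and 24% of all genes and 31.3% and 12.5% of the shortest span class. The median was 0.10 (0.06 after quantile and 0.13 after trimmed-mean scaling). RPL30, of the large subunit, had 556.19 and 537.94 RPKM in siEZH2 cells against 421.86 and 466.24 RPKM in mock cells. The groups did not overlap. Of the 35 genes, 31 were in the shortest span class, and the part of span was not tested. The median in AI cells was 0.01.

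Mitochondrially encoded genes were lower. Of the 15, all tested, none passed the test, 13 had both siEZH2 values below both mock values and 1, MT-ND3, had both above, against 24% and 19.5% of all genes. The median log2 difference was -0.25 (-0.32 after quantile and -0.21 after trimmed-mean scaling). MT-CYB, the cytochrome b of complex III, had 411.12 and 397.68 RPKM in siEZH2 cells against 564.05 and 490.22 RPKM in mock cells (log2 difference -0.38, limma adjusted p = 0.999). MT-RNR2, the large ribosomal RNA, had 3073.45 and 3107.08 RPKM in siEZH2 cells against 3208.61 and 3396.17 RPKM in mock cells. MT-ND3, a complex I subunit, had 1044.04 and 1058.15 RPKM in siEZH2 cells against 989.06 and 1014.85 RPKM in mock cells. In AI cells the median was 0.34, of the opposite sign, but no gene of the list differed between AD and AI by the test of that difference. In such bulk samples a change in the share of cells with high levels and a change in RNA per cell cannot be told apart.

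Enzymes of H3K36 methylation, a mark that hinders PRC2, were lower as a list. Of 11 tested none passed the test, 9 had both siEZH2 values below both mock values and 1 above, and the median was -0.18. Over all genes 24% lay below and 19.5% above, and in the longest span class 39.9% lay below and 8.27% above. ASH1L, an H3K36 methyltransferase, had 2.08 and 1.98 RPKM in siEZH2 cells against 2.92 and 2.76 RPKM in mock cells. NSD1, another, had 4.61 and 3.82 RPKM in siEZH2 cells against 5.05 and 5.07 RPKM in mock cells. Of these genes 9 were in the longest span class, and the part of span was not tested. Splicing factors had a median of -0.06 over 40 tested, with 20 below both mock values and 6 above (50% and 15%, against 24% and 19.5% of all genes), and the median was -0.094 without mock replicate 1. SRSF11, an SR-type factor, had 61.76 and 63.34 RPKM in siEZH2 cells against 78.17 and 73.03 RPKM in mock cells. Genes of the RNA interference machinery, which an siRNA engages, had a median of -0.14 over 14 tested, and of -0.07 without mock replicate 1. Of the 14, 7 lay below both mock values and 2 above (50% and 14.3%, against 24% and 19.5% of all genes). AGO4, an Argonaute gene, had 2.62 and 3.08 RPKM in siEZH2 cells against 4.05 and 3.94 RPKM in mock cells. TARBP2, a partner of Dicer, went the other way, with 10.87 and 13.06 RPKM in siEZH2 cells against 9.93 and 9.27 RPKM in mock cells (log2 difference 0.30, not called). Of the 14 genes, 7 were in the longest span class, and the part of span was not tested.

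Lists tied to EZH2 function showed little. Of 25 genes reported as silenced by EZH2 in tumours 14 were tested, 0 passed the test in either direction, 2 lay above both mock values and 3 below (14.3% and 21.4%, against 19.5% and 24% of all genes), and the median was -0.04, or -0.09 without mock replicate 1. MSMB, a secreted prostate protein of this list, had 1.93 and 0.51 RPKM in siEZH2 cells against 3.4 and 1.52 RPKM in mock cells, which overlap. Of 45 Polycomb developmental targets 20 were tested, with 2 above and 7 below (10% and 35%). Their median was -0.08, but 0.02 without mock replicate 2 and -0.04 without mock replicate 1, so its sign rested on mock replicate 2. SIX2, a homeobox gene, had 0.19 and 0.38 RPKM in siEZH2 cells against 0.62 and 0.72 RPKM in mock cells. It passed the filter through the mock libraries alone, so its direction was fixed by being tested. The other 19 targets gave 2 above and 6 below. The HOX genes among the targets below the filter stayed under 0.5 RPKM in all 4 libraries. Androgen-induced genes had a median of -0.06 over 26 tested, and G1/S and G2/M genes, 24 of each, had medians of 0.03 and -0.06. Leaving out a library gave -0.106 to -0.017 for the androgen-induced genes, 0.011 to 0.039 for G1/S and -0.116 to 0.001 for G2/M genes, and quantile scaling gave -0.0034 for G1/S genes. CDT1, a replication licensing factor, had 22.69 and 25.08 RPKM in siEZH2 cells against 18.15 and 20.12 RPKM in mock cells. It did not pass the test, though the groups did not overlap.

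Single genes of the stress and hypoxia lists had larger differences than the lists as a whole. DDIT3, a transcription factor of the integrated stress response, had 114.88 and 119.91 RPKM in siEZH2 cells against 162.81 and 140.42 RPKM in mock cells (log2 difference -0.36, limma adjusted p = 0.999). VEGFA, an angiogenic growth factor, had 144.74 and 143.93 RPKM in siEZH2 cells against 176.8 and 182.45 RPKM in mock cells (log2 difference -0.31). The unadjusted p of VEGFA was 0.027 with 12 libraries and 0.000138 with 8 (limma). VEGFA did not pass the test after adjustment in either fit. NDUFA4L2, a hypoxia-induced mitochondrial protein gene, had 979.53 and 1004 RPKM in siEZH2 cells against 803.72 and 883.31 RPKM in mock cells, higher without overlap (log2 difference 0.23, limma adjusted p = 0.999). The stress list had a median of -0.01 over 17 tested and the hypoxia list one of -0.02 over 17. After trimmed-mean scaling these medians were 0.03 and 0.01. In the hypoxia list 6 genes lay above both mock values and 6 below (35.3% each, against 19.5% and 24% of all genes). MALAT1, a nuclear noncoding RNA, had 152.23 and 149.91 RPKM in siEZH2 cells against 179.92 and 186.22 RPKM in mock cells.

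**Figure D5:**
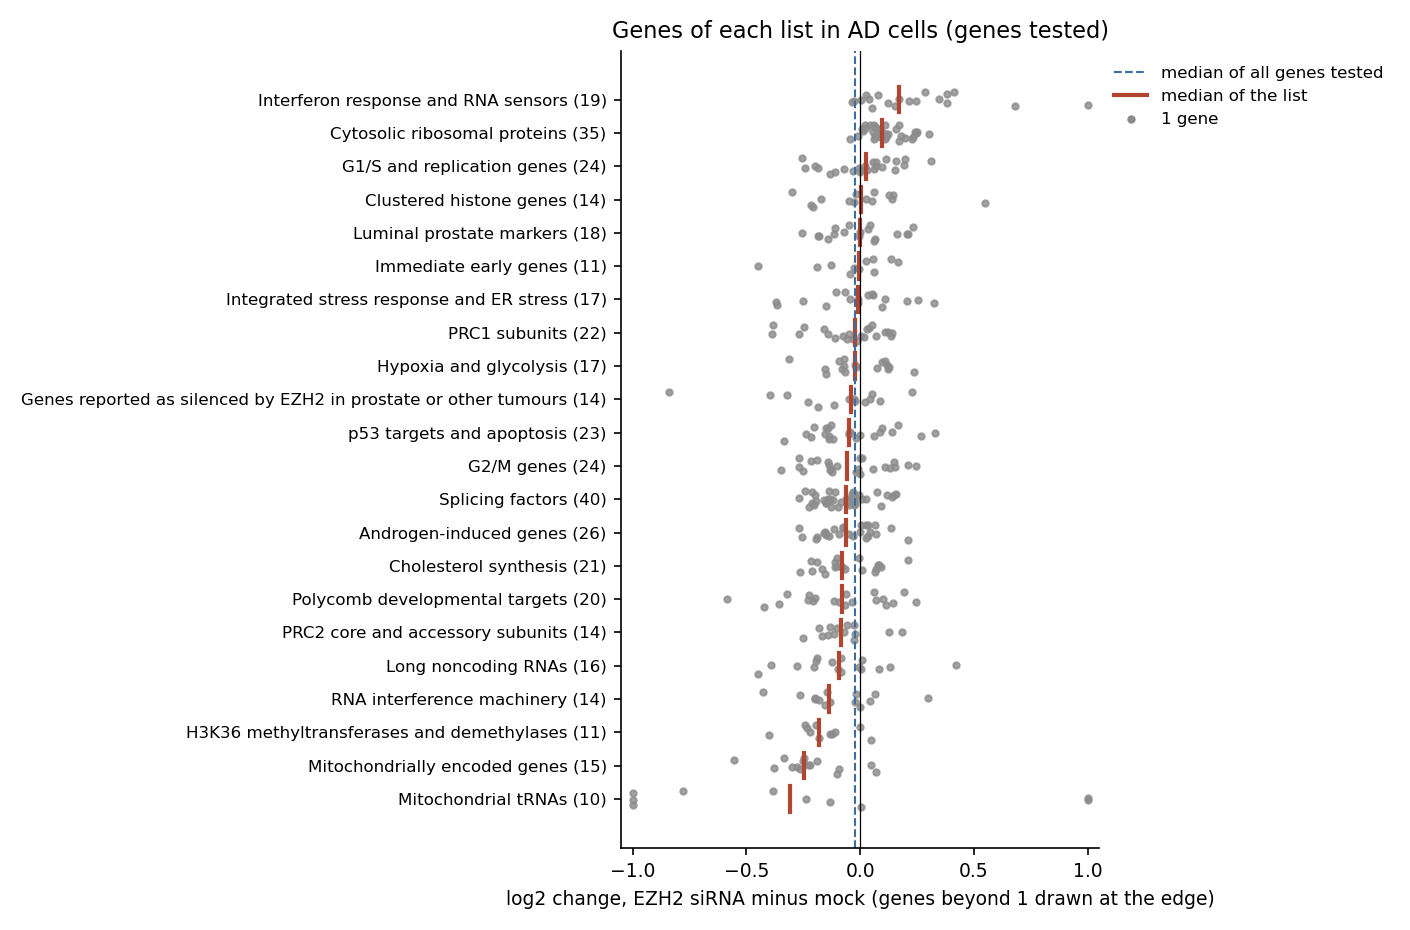
Log2 difference, siEZH2 minus mock, of each gene of the lists with 10 or more genes tested (grey points), with the list median (red) and the median of all genes (dashed blue). Interferon response genes have a median of 0.17, the highest. Mitochondrial tRNAs, most of them at a few reads, have one of -0.31, which was 0.03 without siEZH2 replicate 1 and -0.88 without mock replicate 2.

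The effects in AD and AI cells, which come from separate libraries, had 0 genes whose difference passed the test at an adjusted p under 0.05 (limma), and 907 at an unadjusted p under 0.05 (6.97%). Over the 7065 genes averaging at least 5 RPKM, the AD and AI log2 differences correlated at 0.444 (Pearson) and 0.482 (Spearman), a description over genes that share the span relation given above. Their SD was 0.16 in AD and 0.307 in AI cells. The 4 transfected AI libraries had 7.55 to 12.8 M reads.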

How the data were processed

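RNA-seq and RIP values are RPKM, deposited by the authors with 2 decimals, 1 column per library. The submitters' processing notes name cutadapt, TopHat2, edgeR and GRCh38 without versions or roles. The sources used here do not give the annotation, the counter or whether strand was used. The deposited peak lists hold a score per peak, at least 50 in each list, which is the authors' own value.

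Values were log2(RPKM + 0.5), and limma 3.58.1 (trend, R 4.3.3) was fitted to all 12 RNA-seq libraries with 1 coefficient per group, with Benjamini-Hochberg adjustment over 13018 genes. Fold changes on this scale understate those of low genes. The fit was tested on simulated data, where many of the genes given a known change of 1 log2 unit were not called. Depth came from the values and RefSeq lengths of 5 to 8 mitochondrial tRNAs in each AD library, within 0.05 reads of whole numbers. It limits low genes: 0.5 RPKM is 4.75 to 6.01 reads per kilobase. The lowest of the library pairs in noise, the siEZH2 pair, still varied 1.06 times the sampling variance over 3788 low genes (chi-square p = 0.00336), so its libraries were counted separately. Symbols came from a name table (540 of 28071 identifiers lacked one) and starts, spans and promoters from RefSeq.

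The comparison and its 28 lists were chosen with earlier results of these data known, and lists are described by counts and medians only. Named genes were EZH2 and PRC2 genes, called genes, the 10 rises and 10 falls of smallest p at a mean of 1 RPKM or more, the extreme and the most abundant genes of each list, and the 3 rises and 3 falls of smallest p of the H3K27me3, ChIP and RIP groups. Not all are printed, and some genes are not reported here. POLR3GL, MT-ND3, some interferon genes and NSD1 were added after their values were seen. Alternatives were other pseudocounts, filters, scalings, sets of libraries, a replicate block and leaving out each library. AI peak lists were not used here.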

Additional observations from a re-analysis of the deposited data

How the results depend on the processing

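The count of 2 called genes was 1 with a pseudocount of 0.1 (MT-TP) and 1 with a pseudocount of 1 (ROPN1L-AS1). It was 38 with no filter on low values, where the highest value of a called gene was 0.12 to 2.46 RPKM. It was 0 after quantile normalization, after TMM scaling, in the fits of the 8 transfected or the 4 AD libraries, with the replicate block, and in each leave-one-out fit (lowest and highest 0). The 1 RPKM filter kept 2. The replicate differences of siEZH2 and mock cells correlated at 0.0187 over genes. This does not decide whether the replicate numbers pair the libraries. Depth went with the number, at 9.49 (siEZH2) and 9.57 (mock) M reads in replicate 1 against 11.9 and 12 M in replicate 2.

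The EZH2 difference kept its sign and missed the threshold in 12 of 13 alternatives. Other filters, the fits of 8 or 4 libraries and the replicate block cannot change the difference, only its p-value. Leaving out a library gave -0.16 to 0.021, and the value of 0.021, without mock replicate 2, is of the other sign. The count of genes that differed between AD and AI was 0, but 1 with a pseudocount of 0.1, 6 with no filter, 1 with the 8 transfected libraries and 0 to 1 when a library was left out, the 1 being without siEZH2 replicate 1. The share of genes with an interval within 1 log2 unit was 81.1% to 82.2% when a library was left out.

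With peaks of a score of 100 or more, the H3K27me3 median was 0.00116, and the ChIP median, from 1 gene, -0.29. A peak in either list gave a ChIP median of 0.03 over 706 genes, and a window of 5000 bases gave 0.08 over 514 genes. For H3K27me3 the same changes gave -0.008 over 243 genes and -0.012 over 198 genes. A RIP excess of 1 gave -0.0824 over 922 genes, and an excess of 3 left 4 genes, none of them tested. Of the list medians, 326 alternative values moved by less than the spread between replicates and 35 by more. The 326 include values that could not move, so the count is not a measure of stability. The fits of the transfected libraries alone and the replicate block change p-values and no median. With no filter on low values each list median also repeated its main value. The interferon median ran from 0.13 to 0.22 when a library was left out, the ribosomal protein median from 0.09 to 0.11 and the mitochondrial median from -0.28 to -0.21. The causes were not tested.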
